A study of Mus musculus with 6 samples.

Results

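This account is about the receptors that noradrenaline and related signals use on fat cells and about the cyclic AMP (cAMP) chain behind them. Its members were chosen by name: Adrb3, Adra2a, Adora1, Gnai1, Adcy3, Adcy6, Prkaca, Prkar2b and Pde3b. Every probe set whose only gene symbol in the array annotation is one of these 9 was taken. That gave 9 probe sets of 4 genes, namely 3 of Gnai1, 4 of Adcy3, 1 of Adcy6 and 1 of Prkaca, among 12393 genes with a probe set of their own. Adrb3, Adra2a, Adora1, Prkar2b and Pde3b were not analysed here. What follows therefore covers the steps from the inhibitory G protein through the cyclases to the kinase, and not the receptors named in the set.

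In adipocytes, noradrenaline released by sympathetic nerves in the cold binds β-adrenergic receptors, chiefly the β3 receptor in mice. The stimulatory G protein Gs then activates adenylyl cyclase, which makes cAMP, while receptors coupled to Gi, such as the α2A-adrenergic and the adenosine A1 receptor, hold the cyclase back. cAMP frees the catalytic subunits of protein kinase A (PKA) from their regulatory subunits, and the kinase drives lipolysis and thermogenic gene expression. Phosphodiesterases end the signal by degrading cAMP.

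Total RNA of white adipose tissue was measured in 3 YY1aKO and 3 control samples, each on its own Affymetrix array. YY1aKO mice carried floxed alleles of Yy1, which encodes a zinc-finger transcription factor, together with Adiponectin Cre. Control mice carried the same floxed alleles without Cre. All mice were 8 weeks old, of mixed C57BL6 and 129 background, and had spent 4 days at 4 °C, so no warm-housed group shows what the cold itself did. The Adiponectin promoter acts in adipocytes, so the other cells of the tissue were not targeted. Only YY1aKO mice carried Cre, and its own effect and that of losing Yy1 cannot be told apart. The labels name the depot as epididymal in the titles, visceral in the tissue field and subcutaneous in the descriptions. They do not say whether the samples came from separate animals, so p-values measure the spread between samples, which may be technical.

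Yy1 separated the groups at 3 of its 4 probe sets. The strongest of these read 373, 323 and 315 in YY1aKO samples, against 1785, 1846 and 1596 in control samples (log2 fold change -2.37, limma adjusted p = 0.0034). Adipocyte genes were abundant in both groups, with Adipoq, the adiponectin gene, at 19767 to 21714 in YY1aKO and 18586 to 24774 in control samples. Control 2 stood apart. Its Pearson correlation with another array, taken across probe sets, was 0.928 to 0.955, against 0.989 between the other controls. Probe sets are not independent replicates. Of 22 listed genes of the epididymis, the sperm-storing duct beside epididymal fat, 10 were measured, and none was at 0 on any array. Their summed intensity was 3717 to 3971 in YY1aKO samples, against 4265 in control 1, 125000 in control 2 and 4710 in control 3. Most of the sum on arrays other than control 2 was 1 gene, Mfge8, at 2834 to 3207. Of the 10 genes, 9 were highest in control 2. The other, Sult1e1, was lowest there (389, against 858 and 639 in controls 1 and 3). Member results and list counts below are therefore also given without control 2, as 3 YY1aKO against 2 control arrays. For other genes named, that fit is given where it differs in call or direction. It keeps control 3, where some epididymal genes also stood above control 1. Gpx5 read 37.2 to 41.5 in YY1aKO samples, against 39.0, 21047 and 639 in controls 1, 2 and 3. Lcn5 read 18.4, 17737 and 50.1 in these controls. Others did not rise in control 3, such as Lcn8 (50.6, 28166 and 49.2) and Cst12 (20.9, 12362 and 18.8).

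With all 6 arrays, none of the 9 member probe sets passed an adjusted p of 0.05 (limma, Benjamini-Hochberg over all 22626 probe sets), where 10.2% of all probe sets did. Those 10.2% divide into 6.54% higher and 3.66% lower in YY1aKO. At an unadjusted p under 0.05 the members' count was 3 of 9, against 27.7% of all probe sets. Without control 2, 2 of the 9 passed, both of Adcy3 and both lower in YY1aKO, where 24.4% of all probe sets passed, 13.9% as higher and 10.6% as lower. At an unadjusted p under 0.05 the count was then 6 of 9, against 37.6% of all probe sets. The groups did not overlap for 4 of the 9 with all 6 arrays, 2 higher and 2 lower in YY1aKO, against 37% of all probe sets (22.2% higher and 14.8% lower), and for 7 of the 9 without control 2, against 53.4%. By adjusted p, the members' share thus lay below the background with all 6 arrays and near it without control 2. By unadjusted p and by lack of overlap it lay above the background in both fits. The 9 probe sets come from only 4 genes, and these shares were not tested against the background. The members' median log2 fold change was -0.08 with all 6 arrays and -0.29 without control 2, against 0.05 and 0.02 over all probe sets.

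**Figure D1:**
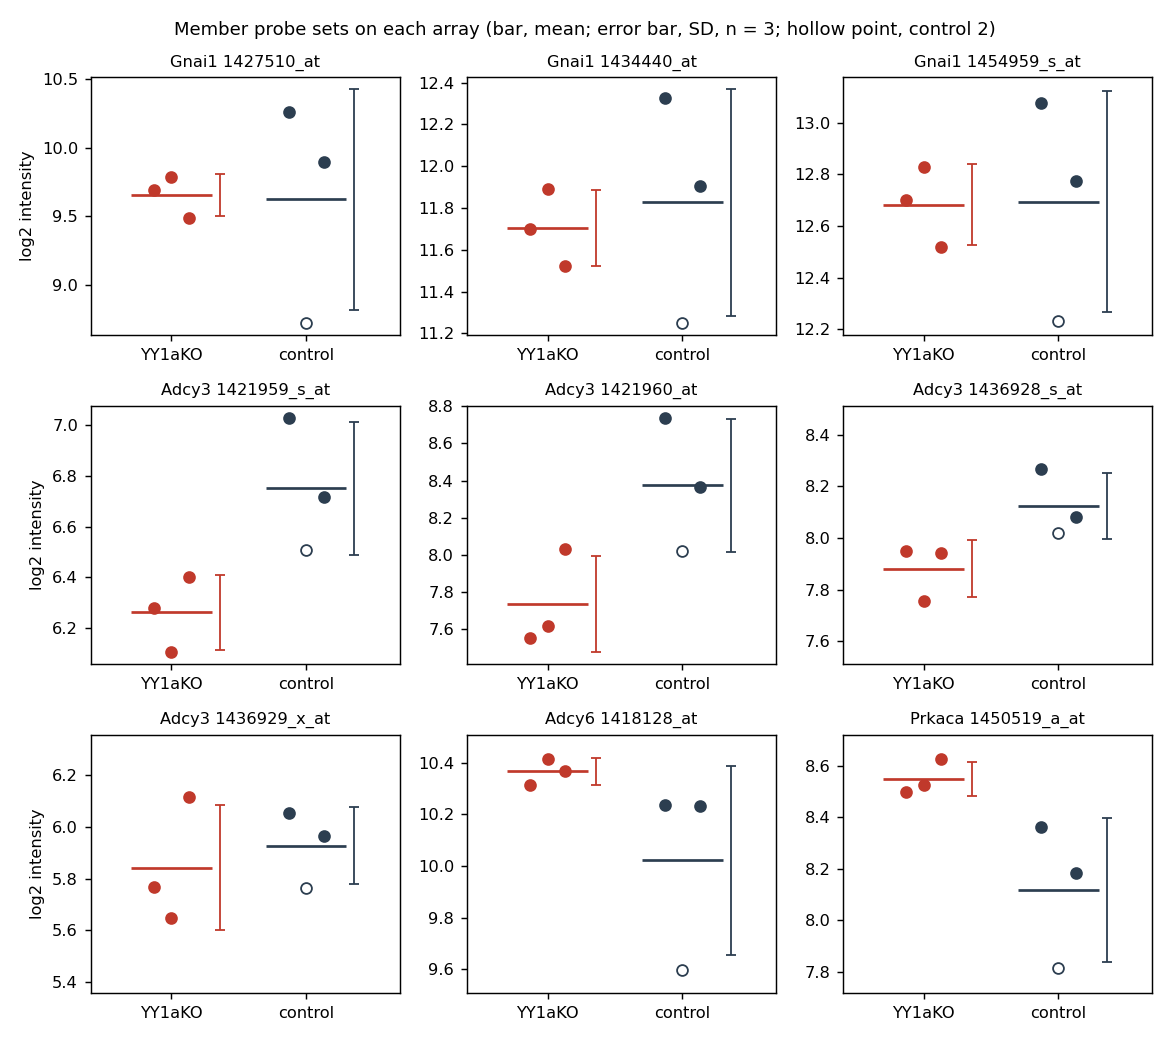
Log2 intensity of each member probe set on each array, with YY1aKO left and control right in every panel. Bars are means, error bars SD (n = 3) and the hollow point is control 2, which was the lowest control in all 9 panels; the panels have their own axes.

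The arrays of the control group spread more widely than those of the YY1aKO group at 8 of the 9 member probe sets, by the SD of log2 intensity. Control 2 was the lowest control and control 1 the highest control at all 9. Control 2 lay below the mean of controls 1 and 3 by 0.15 to 1.36 log2 units, with a median difference of -0.53. It was the lowest of all 6 arrays at 5 of the 9, all those of Gnai1, Adcy6 and Prkaca. Adipocyte markers shifted the same way on this array. Of 15 listed adipocyte genes 12 were measured, none at 0, and 11 of them were lowest in control 2, with a median difference of -1.30 from the other controls. Their summed intensity was 112400 to 118700 in YY1aKO samples, against 85980 in control 2 and 130200 to 139800 in the other controls. Macrophage (median difference -0.84) and endothelial markers (-1.51) also read low in control 2. Genes of sympathetic nerves, the source of noradrenaline, summed to 406 to 492 in YY1aKO samples, against 493 to 664 in control samples (12 of 13 listed genes measured, none at 0). One of them, Ddc, differed widely (26.5, 14.2 and 15.4 in YY1aKO samples, against 34.0, 228 and 228 in control samples). Without Ddc, a comparison made after its values were seen, the sums were 443, 478 and 390 in YY1aKO samples, against 459, 402 and 436 in control samples, and overlapped. Several of these genes were dim, with Th at 20.5 to 24.9, Snap25 at 7.4 to 8.8 and Syt1 at 12.4 to 14.0 over all arrays. The lowest value of any probe set was 6.09, so the sums say little about the nerve supply of either group. None of the 12 passed in either fit, and their median log2 fold change was 0.03 with all 6 arrays and 0.02 without control 2. The part of these shifts in the members' differences was not tested. In bulk tissue, fewer cells of a type and less RNA per cell cannot be told apart.

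**Figure D2:**
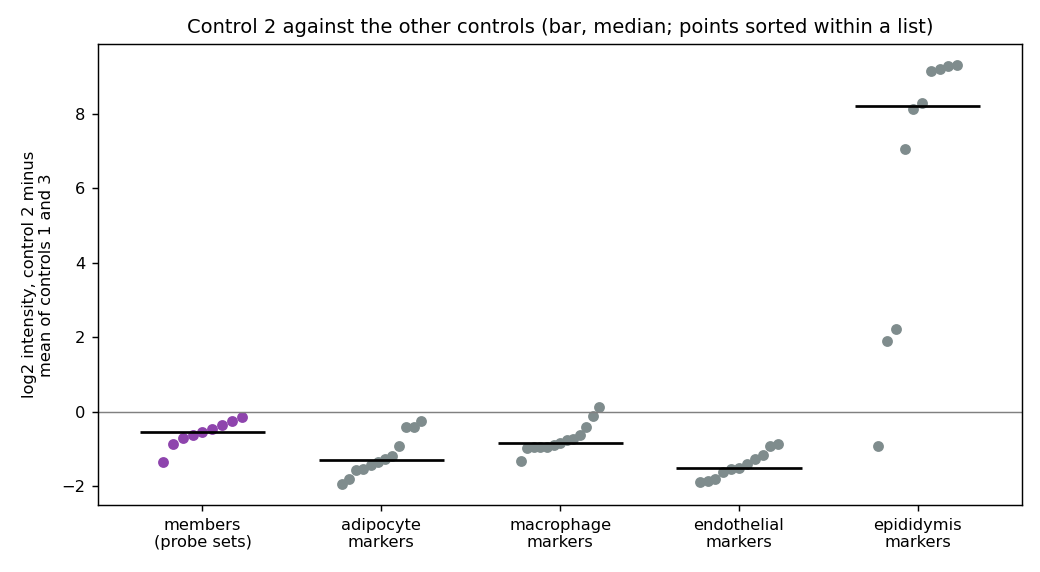
Difference in log2 intensity between control 2 and the mean of controls 1 and 3, for the 9 member probe sets and for 4 marker lists, each gene by its probe set of highest mean. Points are probe sets sorted within a list and bars are medians (-0.53 for the members, -1.30 for adipocyte, -0.84 for macrophage, -1.51 for endothelial and 8.20 for epididymis markers).

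Because YY1 binds DNA near gene starts, the promoter sequences of the members whose groups differed most are shown here with the start site before their last 50 bases. The table of 300-base RefSeq promoters (build GRCm38.p6, 250 bases before and 50 after a start) held 6 of the 9 members and 3 of the 4 measured ones, with 1 window for Gnai1 and 2 each for Adcy3 and Prkaca. The first windows of Adcy3 (chr12:4133147-4133446, plus strand) and Prkaca (chr8:83972728-83973027, plus strand) read as follows, with matches to the letters CGTCA or TGACG, the shorter form of a cAMP response element, in capitals.

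Adcy3: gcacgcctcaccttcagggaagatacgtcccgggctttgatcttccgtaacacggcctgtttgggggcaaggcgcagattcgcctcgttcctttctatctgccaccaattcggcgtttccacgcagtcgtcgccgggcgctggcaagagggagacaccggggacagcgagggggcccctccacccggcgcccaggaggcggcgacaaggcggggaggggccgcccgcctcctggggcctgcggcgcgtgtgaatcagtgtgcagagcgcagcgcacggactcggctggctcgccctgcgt

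Prkaca: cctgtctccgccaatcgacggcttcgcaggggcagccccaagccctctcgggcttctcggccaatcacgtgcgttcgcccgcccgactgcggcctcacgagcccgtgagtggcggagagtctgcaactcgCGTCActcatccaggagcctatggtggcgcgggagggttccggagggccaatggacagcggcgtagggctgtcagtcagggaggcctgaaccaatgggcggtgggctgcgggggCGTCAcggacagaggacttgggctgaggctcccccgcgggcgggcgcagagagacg

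The Prkaca window holds this short form 2 times, at 120 to 116 and at 6 to 2 bases before the start, and the Adcy3 window does not hold it. It occurs in 20.8% of the 32851 promoter windows of this length, on either strand. The full element TGACGTCA (1.79% of windows), and CCATNTT, a core often given for YY1 (16.1% of windows, both strands), were found in none of the 5 windows of Gnai1, Adcy3 and Prkaca. These are matches of letters only, and nothing was measured here at these sites.

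Gnai1 encodes the α subunit of an inhibitory G protein, through which the α2A-adrenergic and adenosine A1 receptors restrain the cyclases. Probe set 1454959_s_at read 6659, 7275 and 5868 in YY1aKO samples, against 8646, 4804 and 7009 in control samples. All YY1aKO values fell between control 2 and control 1. The mean log2 intensity was 12.68 ± 0.16 in YY1aKO and 12.69 ± 0.43 in control samples (SD, n = 3 each), a log2 fold change of -0.01 with a 95% confidence interval from -0.57 to 0.55 (limma adjusted p = 0.982). Probe set 1434440_at read 3329.6, 3793 and 2941 in YY1aKO samples, against 5135, 2432 and 3836 in control samples. Its log2 fold change was -0.12 (interval -0.81 to 0.56, limma adjusted p = 0.819).

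The third Gnai1 probe set, 1427510_at, read 828, 885 and 717 in YY1aKO samples, against 1227, 422 and 954 in control samples. Its SD of log2 intensity was 0.16 in YY1aKO and 0.81 in control samples, the widest control spread among the members. Its log2 fold change was 0.03 with all 6 arrays, with an interval from -0.93 to 0.99, so that a difference of nearly 2-fold in either direction lies within it. Without control 2 it was -0.42 (interval -0.78 to -0.07), and the other 2 probe sets had -0.41 and -0.24. None passed (limma adjusted p = 0.0861, 0.124 and 0.252 in turn), although at 1427510_at and 1434440_at all YY1aKO values then lay below both controls. Without control 1 instead of control 2, the 3 probe sets had 0.35 (1427510_at), 0.13 (1434440_at) and 0.18 (1454959_s_at). The direction of Gnai1 thus rested on which control was used, and these arrays did not settle it.

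Adcy3 encodes a membrane adenylyl cyclase, the enzyme that turns ATP into cAMP when Gs is active. Its probe set 1421960_at read 188, 196 and 261 in YY1aKO samples, against 427, 259 and 329 in control samples. The groups overlapped by 1 pair of arrays, YY1aKO 3 at 261 and control 2 at 259. The mean intensity was 215 ± 40.4 in YY1aKO and 339 ± 84.4 in control samples (SD, n = 3 each). The log2 fold change was -0.64 ± 0.22 (SE), with an interval from -1.18 to -0.10 and a limma adjusted p of 0.129. Without control 2 it was -0.82 ± 0.18, or 1.76-fold lower in YY1aKO, and passed (limma adjusted p = 0.0245).

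Probe set 1421959_s_at of Adcy3 gave the other call. It read 77.6, 68.7 and 84.4 in YY1aKO samples, against 131, 91.0 and 105 in control samples. All YY1aKO values lay below all control values. The log2 fold change was -0.49 ± 0.16 (SE, n = 3 each, limma adjusted p = 0.112) with all 6 arrays and -0.61 ± 0.14, or 1.53-fold lower in YY1aKO, without control 2 (limma adjusted p = 0.024).

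The other Adcy3 probe sets moved less. Probe set 1436928_s_at read 247, 216 and 246 in YY1aKO samples, against 308, 259.7 and 271 in control samples, again without overlap. Its log2 fold change was -0.24 (interval -0.51 to 0.02, limma adjusted p = 0.215), and -0.29 without control 2 (limma adjusted p = 0.1). Probe set 1436929_x_at read 54.4, 50.1 and 69.3 in YY1aKO samples, against 66.4, 54.3 and 62.5 in control samples. These overlapped, with a log2 fold change of -0.08 (interval -0.46 to 0.29, limma adjusted p = 0.767), or -0.17 without control 2 (limma adjusted p = 0.477).

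All 4 Adcy3 probe sets therefore had lower means in YY1aKO, in sizes from -0.08 to -0.64 on the log2 scale. They share a gene and are not replicates, and the suffixes _s_at and _x_at mark sets whose probes can match more than 1 transcript. Averaged into 1 value per gene, Adcy3 had a log2 fold change of -0.36 with all 6 arrays (limma adjusted p = 0.188) and -0.47 without control 2 (limma adjusted p = 0.0505), and passed in neither fit. Both calls made without control 2 were also lost when control 1, YY1aKO 1 or YY1aKO 2 was left out with it, and held when control 3 (log2 fold changes of -1.01 for 1421960_at and -0.77 for 1421959_s_at) or YY1aKO 3 was.

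**Figure D3:**
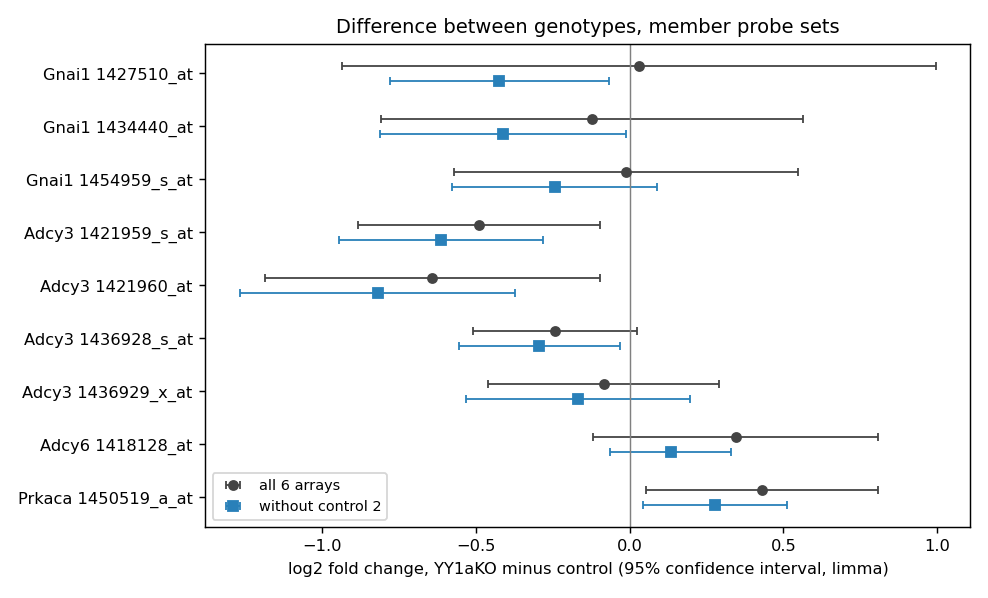
Log2 fold change of YY1aKO minus control for each member probe set, with all 6 arrays (circles) and without control 2 (squares); lines are 95% confidence intervals from limma, not adjusted for the number of probe sets. The Gnai1 values move from about 0 to between -0.24 and -0.42 without control 2, all 4 Adcy3 values lie below 0 in both fits, and Adcy6 and Prkaca lie above 0.

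Adcy6 encodes a cyclase that Gi inhibits. Its probe set 1418128_at read 1273, 1366 and 1323 in YY1aKO samples, against 1206, 775 and 1202 in control samples. All YY1aKO values were above all control values, but controls 1 and 3 were close to them. The log2 fold change was 0.34 ± 0.19 (SE, n = 3 each, limma adjusted p = 0.3) with all 6 arrays. Without control 2 it was 0.13, with an interval from -0.06 to 0.33 (limma adjusted p = 0.291), so that most of the difference came with that array.

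Adcy3 and Adcy6, the 2 cyclases of the set, thus had differences of opposite sign. Neither gene passed with all 6 arrays, and the difference between them was not tested.

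Prkaca encodes the catalytic α subunit of PKA, which phosphorylates hormone-sensitive lipase and perilipin. Its probe set 1450519_a_at read 361, 368 and 394 in YY1aKO samples, against 329, 225 and 290.45 in control samples. All YY1aKO values were above all control values. The mean intensity was 375 ± 17.4 in YY1aKO and 281 ± 52.4 in control samples (SD, n = 3 each). The log2 fold change was 0.43 ± 0.15 (SE, interval 0.05 to 0.81), or 1.35-fold, and did not pass (limma adjusted p = 0.137). Without control 2 it was 0.28, or 1.21-fold (interval 0.04 to 0.51, limma adjusted p = 0.0872).

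The other genes of the pathway were described from 8 lists of 131 symbols, of which 97 genes had 181 probe sets. With all 6 arrays 5 of the 181 were higher and 15 lower in YY1aKO (11% in all, against 10.2% of all probe sets), while 10 were higher and 29 lower in the fit that left control 2 out (21.5%, against 24.4%). The median log2 fold change was 0.05 with all 6 arrays and -0.06 without control 2, against 0.05 and 0.02 over all probe sets. The 20 calls became 3 without YY1aKO 1, none without YY1aKO 2, none without YY1aKO 3 and 5 without control 3, while those over all probe sets became 127, 18, 28 and 259. All 20 were among the 39 made without control 2.

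**Figure D4:**
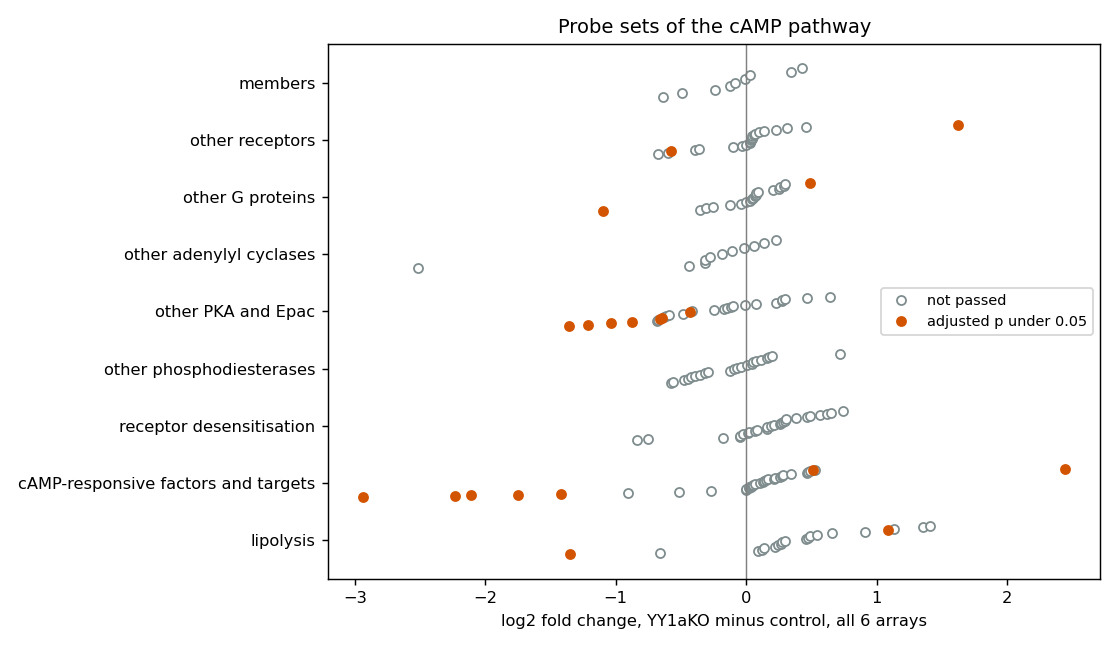
Log2 fold change of YY1aKO minus control with all 6 arrays for each probe set of the members and of 8 further pathway lists; filled points passed an adjusted p of 0.05. None of the member probe sets is filled, and the 7 filled points of the PKA and Epac list all lie below 0.

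Among other receptors, 1 of 22 probe sets was higher and 1 lower (9.09% in all, against 10.2% of all probe sets). Without control 2 the numbers were 1 and 4 (22.7%, against 24.4%). Ptger4, a prostaglandin E2 receptor coupled to Gs, read 255, 205 and 245 in YY1aKO samples, against 341, 377 and 329 in control samples (log2 fold change -0.57, limma adjusted p = 0.0365). Its other probe set had -0.39 with all 6 arrays, where it did not pass, and -0.45 without control 2, where it did (limma adjusted p = 0.0329). Tshr, the thyrotropin receptor, rose at 1 probe set (59.7, 28.8 and 60.8 in YY1aKO samples, against 17.6, 10.7 and 18.9 in control samples, limma adjusted p = 0.0461). Its other probe set was brighter, at 315 to 887 over all arrays. That one had 0.04 with all 6 arrays and -0.40 without control 2 and passed in neither fit. Ptger3, the Gi-coupled prostaglandin E2 receptor abundant in adipocytes, read 571, 1037 and 845 in YY1aKO samples, against 2065, 511 and 1937 in control samples. The groups overlapped through control 2 alone. Its log2 fold change was -0.68 with all 6 arrays and -1.33 without control 2, where it passed (limma adjusted p = 0.0126). Its other probe set was dim, at 15.6 to 21.6 over all arrays. It had -0.10 without control 2 and did not pass (limma adjusted p = 0.687). Adcyap1r1, the PACAP receptor, likewise passed without control 2 at 1 of 2 probe sets (-0.79), which read 11.1 to 12.4 in YY1aKO and 13.7 to 22.1 in control samples. The other had -0.10 with all 6 arrays and -0.22 without control 2 (limma adjusted p = 0.7 and 0.223). Its groups overlapped in both fits. The measured adrenergic receptors Adra1b (31.3 to 34.3 over all arrays) and Adra2c passed in neither fit.

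Among other G protein subunits, 1 of 20 probe sets was higher and 1 lower (10% in all, against 10.2% of all probe sets). Without control 2 it was 1 and 2 (15%, against 24.4%). The γ subunit gene Gng10 read 725, 620.2 and 505 in YY1aKO samples, against 1425, 1119.8 and 1404 in control samples, a log2 fold change of -1.10 ± 0.17 (limma adjusted p = 0.0189). The β subunit gene Gnb1 rose by 0.49 at 1 of 3 probe sets (limma adjusted p = 0.0273), and the other 2 had 0.03 and 0.09 with all 6 arrays and -0.09 and 0.10 without control 2, and passed in neither fit. Gnas, which encodes the α subunit of Gs, read 7019, 7251 and 6997 at 1450186_s_at in YY1aKO samples, against 6782, 6934 and 6929 in control samples (log2 fold change 0.04, limma adjusted p = 0.759). Gnai2, another inhibitory α subunit, had -0.31 and -0.25 at its 2 probe sets and passed at the second without control 2 (-0.31, limma adjusted p = 0.0411). The list of other cyclases also holds Cap1, a cyclase-associated protein that is not itself a cyclase. None of its 11 probe sets passed in either fit. At an unadjusted p under 0.05 there were 4 of 11 with all 6 arrays, Cap1 among them, against 27.7% of all probe sets. Without control 2 there were 2, against 37.6%. Adcy8 read 35.8, 29.3 and 23.9 in YY1aKO samples, against 36.8, 561 and 225 in control samples, so control 1 lay close to the YY1aKO values. Its log2 fold change was -2.51 with all 6 arrays and -1.64 without control 2 (limma adjusted p = 0.157 and 0.146). The epididymal gene Gpx5 had the same order among the controls (39.0, 21047 and 639 in controls 1, 2 and 3). Whether the 2 are linked was not tested.

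The PKA and Epac list had 7 of 27 probe sets lower and none higher, and 11 lower without control 2. The background of lower calls was 3.66% and 10.6% in turn. The 7 came from 4 of the 14 measured genes, and the 11 from 5 genes. Probe sets of a gene are not independent, and the lists were chosen with earlier results known. These shares are therefore no test of an excess in this list. With all 6 arrays, the groups did not overlap for 4 of the 27 as higher and 9 as lower in YY1aKO. Over all probe sets these shares were 22.2% and 14.8%. Prkar1a, the type I regulatory subunit of PKA, read 592, 562 and 575 at 1425550_a_at in YY1aKO samples, against 1174, 1216 and 1149.8 in control samples. The groups lay far apart beside their own spread, with a log2 fold change of -1.03 ± 0.08 (limma adjusted p = 0.0066). Its second probe set, 1452032_at, had -0.15 ± 0.11 and did not pass (limma adjusted p = 0.431), and which transcripts each set reads is not known here. Pkig, a protein inhibitor of the PKA catalytic subunit, was lower at both its probe sets, with 467, 412 and 401 in YY1aKO samples, against 699, 671 and 632 in control samples at the first (log2 fold change -0.65, limma adjusted p = 0.018).

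Akap9 and Akap8 encode anchoring proteins that bind PKA. Akap9 read 177, 167 and 161 in YY1aKO samples, against 352, 464 and 363 in control samples (log2 fold change -1.21, limma adjusted p = 0.0102), and -1.36 at its second probe set. Akap8 had -0.66 and -0.43, both past the threshold with all 6 arrays. Prkacb, the catalytic β subunit, had -0.61 and -0.49 and did not pass. Rapgef3, which encodes the cAMP sensor Epac1, read 127, 139 and 110.3 at 1424470_a_at in YY1aKO samples, against 280.2, 102 and 285 in control samples. All 4 of its probe sets passed as lower without control 2 (-0.51 to -1.18), and none with all 6 arrays (-0.24 to -0.69). Endothelial cells express Epac1 too, and their markers were low in control 2. The summed intensity of these markers was 4200 to 5073 in YY1aKO samples, against 2497 in control 2 and 6027 to 7372 in the other controls. Without control 2, 4 of the 11 markers passed, against 24.4% of all probe sets. The part of endothelial cells in the Rapgef3 result was not tested.

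**Figure D5:**
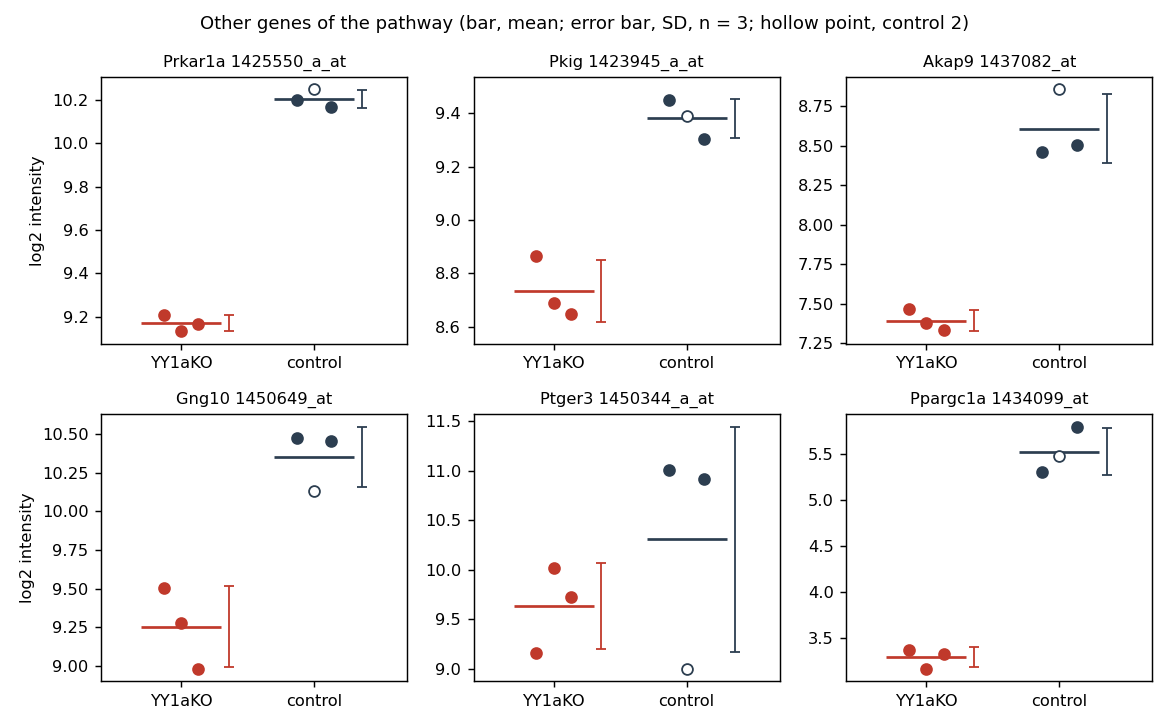
Log2 intensity on each array for 6 further genes of the pathway, with YY1aKO left and control right; bars are means, error bars SD (n = 3) and the hollow point is control 2. Prkar1a, Pkig, Akap9, Gng10 and Ppargc1a separate the groups on every array, while Ptger3 overlaps through control 2; the panels have their own axes.

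None of 22 probe sets of other phosphodiesterases passed with all 6 arrays, against 10.2% of all probe sets. At an unadjusted p under 0.05 there were 5 of 22, against 27.7% of all probe sets. Without control 2, 4 passed (18.2%, against 24.4% of all probe sets), all lower in YY1aKO and from genes of cAMP-specific enzymes. Pde4b read 86.0, 97.2 and 95.4 in YY1aKO samples, against 148, 115 and 152 in control samples (log2 fold change -0.56 with all 6 arrays, limma adjusted p = 0.0554, and -0.69 without control 2, limma adjusted p = 0.0051). Its other probe set had -0.58 without control 2 and did not pass (limma adjusted p = 0.0503). Pde7a passed there at 2 of 4 probe sets (-0.57 and -0.47), and the others had -0.35 and 0.01. Pde8a passed at 1 of 2 (-0.74), and the other had -0.36. Of 26 probe sets of receptor kinases, arrestins and RGS proteins none passed with all 6 arrays, against 10.2% of all probe sets. At an unadjusted p under 0.05 there were 4 of 26, against 27.7% of all probe sets. In the fit that left control 2 out 7.69% passed, against 24.4% of all probe sets. Without control 2, Arrb1, a β-arrestin that uncouples receptors from G proteins, passed as lower (log2 fold change -1.17 at its 1 probe set) and the receptor kinase Grk6 as higher (0.58 at 1 of 2 probe sets).

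Among transcription factors and targets of the pathway, 2 of 33 probe sets were higher and 5 lower (21.2%, against 10.2% of all probe sets). Without control 2 it was 3 and 6 (27.3%, against 24.4%). All 5 lower ones belong to Ppargc1a, the coactivator PGC-1α that cold induces through cAMP. Their log2 fold changes ran from -1.42 to -2.93. Its probe set 1460336_at read 22.3, 15.3 and 35.0 in YY1aKO samples, against 163, 134.5 and 242.5 in control samples (limma adjusted p = 0.012). That of smallest p, 1434099_at, had -2.23 (limma adjusted p = 0.0051). Ucp1, whose product uncouples brown-fat mitochondria, read 118, 67.6 and 306 in YY1aKO samples, against 24.7, 23.8 and 25.5 in control samples (log2 fold change 2.45, limma adjusted p = 0.0407). Crem, a cAMP-responsive repressor and activator, rose at 1 of 3 probe sets, which read 20.9 to 22.9 in YY1aKO and 14.6 to 16.1 in control samples. Dio2, the thyroid hormone deiodinase of brown fat, had 0.34 at 1 of 3 probe sets and 0.02 or less at the others, and passed in neither fit. Without control 2, Pck1, the enzyme of glyceroneogenesis, was lower at 1 of 2 probe sets (-1.51, limma adjusted p = 0.0097). The other Pck1 probe set was dim, at 7.2 to 9.0 over all arrays, and had 0.10. The factor gene Atf2 was higher at 1 of 4 probe sets in that fit (0.46, limma adjusted p = 0.0379), and the others had 0.15 to 0.20. The 2 targets Ppargc1a and Ucp1 thus moved in opposite directions.

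In lipolysis, the output of PKA in fat, 1 of 20 probe sets was higher and 1 lower (10% in all, against 10.2% of all probe sets). Without control 2 it was 4 and 1 (25%, against 24.4%), so the list lay near the background in both fits. The probe set higher with all 6 arrays, of the monoglyceride lipase Mgll, read 194, 196 and 196 in YY1aKO samples, against 104, 84.7 and 87.5 in control samples. The other 3 Mgll probe sets were far brighter, at 1620 to 9071 over all arrays. They had 0.24 to 0.49 with all 6 arrays and -0.01 to -0.11 without control 2, so their direction turned with that array. They passed in neither fit. The lower one was Plin5, a lipid-droplet protein of oxidative tissue (log2 fold change -1.35, limma adjusted p = 0.0289). Lipe, the hormone-sensitive lipase that PKA phosphorylates, read 6395, 7041 and 6509 in YY1aKO samples, against 6093, 1704 and 4219 in control samples, with a log2 fold change of 0.91 with all 6 arrays and 0.39 without control 2. It passed in neither fit (limma adjusted p = 0.256 and 0.138). Pnpla2, the triglyceride lipase, had 0.22 and 0.66 with all 6 arrays and -0.15 and 0.20 without control 2, and passed in neither fit. Without control 2, the lipase cofactor Abhd5 (0.75), the glycerol channel Aqp7 (0.92) and the droplet protein Plin2 (0.82) were also higher, Abhd5 and Aqp7 at 1 of 2 probe sets each. The other Abhd5 probe set had -0.18 (limma adjusted p = 0.389) and the other Aqp7 probe set -0.11 (limma adjusted p = 0.811) in that fit.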

How the data were processed

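Gene expression was measured in 6 samples on 1-colour Affymetrix arrays. The authors deposited an intensity for each probe set on each array. RMA is the method that the submitters' processing notes name, without version or settings. The values run from 6.09 to 30322, so they were read as linear and their log2 was taken. RMA makes the distributions of the arrays alike (medians 134 to 140.2), and a shift shared by most genes would not show. Detection calls were not used, the depth of an array is its 1 signal per probe set, and the number of arrays limits precision.

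Of 22690 probe sets, 64 array controls were left out. The other 22626 were fitted together, with no filter on dim ones, by limma 3.58.1 in R 4.3.3 (lmFit and eBayes, two-sided, Benjamini-Hochberg, threshold 0.05). Fold changes are YY1aKO minus control. The annotation gives 1 symbol for 20380 probe sets, several for 691 and none for 1555; only the first kind was named. The members and lists were chosen with earlier results of these data known. Named genes were all member probe sets, Yy1, a set of key genes, and per list up to 4 genes that passed with all arrays (otherwise the 2 of smallest p) and up to 4 that passed only without control 2; not all of them are printed. Likeness to Adrb3 was to be ranked and was not analysed here. Promoters come from RefSeq (GRCm38.p6). Alternatives covered the summary of probe sets, the filter, the log offset, normalization, prior, array weights, a replicate block, thresholds and arrays left out. The scripts were tested on simulated data.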

Additional observations from a re-analysis of the deposited data

How the results depend on the processing

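Of 203 values of member probe sets under 25 alternatives, 188 kept the direction of the comparison with all 6 arrays and 15 did not, 14 of them of Gnai1. Gnai1 1427510_at changed from 0.03 to -0.24 with array weights, to -0.42 without control 2 (also among the brightest 60 percent of probe sets), and without control 2 plus another array to -0.44 (YY1aKO 1), -0.49 (YY1aKO 2), -0.34 (YY1aKO 3), -0.24 (control 1) and -0.605 (control 3, limma adjusted p = 0.0459). Gnai1 1454959_s_at had 0.0274 with the same median on every array. With 1 array left out, or control 2 and 1 more, Gnai1 1427510_at ran from -0.605 to 0.35, Gnai1 1434440_at from -0.62 to 0.13, Gnai1 1454959_s_at from -0.39 to 0.18 and Adcy3 1436929_x_at from -0.30 to 0.0135. The cause of each was not tested.

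Of the 9 member probe sets, 0 passed with all 6 arrays, 0 to 2 with 1 array left out, 3 with array weights (Adcy3 1421960_at, Adcy3 1421959_s_at and Prkaca, at 0.36), and 2 in the brightest 60 percent without control 2. With control 2 and a further array left out the count was 2 (YY1aKO 3), 3 (control 3) or 0 (each other array). The array weights did not converge fully and gave control 3 a weight of 5.69 and control 2 one of 0.119, so this setting rests largely on 1 control.

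Over all probe sets, 2306 passed, and 18 to 5532 with 1 array left out. The count was 170 and 4141 at thresholds of 0.01 and 0.10, 9395 with array weights, 1344 and 1359 with 1 value per gene (highest or mean probe set), 1451 without _s_at, _x_at and _a_at sets, and 5657 in the brightest 60 percent without control 2. With control 2 and YY1aKO 1, control 1 or control 3 left out it was 3769, 4965 and 3628. Of the 181 other pathway probe sets 20 passed, and 0 to 39 with 1 array left out. That count was 4 and 31 at the 2 thresholds, 68 with array weights, 8 and 9 with 1 value per gene, 31 in the brightest 60 percent without control 2, and 33, 33 and 38 with those further arrays left out. Settings with control 2 and another array or choice changed together were chosen after seeing the data. Fewer genes are tested in the settings with 1 value per gene.

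The replicate block left 16 calls over all probe sets, 0 of the members and 1 of the other pathway probe sets. Same-numbered samples did not deviate together (correlations of -0.096, -0.078 and -0.102), and the labels tie no animals or batches to the numbers, so they share only a number.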
